A study of Mus musculus with 37 samples.

Results

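The comparison described here is that of morphine with saline in adult mice that drank water. Its 8 libraries, 5 with morphine and 3 with saline, were chosen by their sample labels from the 37 of the study. All mice were male wild-type C57BL/6J, an inbred laboratory strain. Treatment of the adults began on postnatal day 55. They had water without antibiotics and received subcutaneous injections of saline or of morphine over 5 days, the latter at 15 mg/kg. The labels give the tissue as brain with all cell types, and according to the title of the series it was medial prefrontal cortex. The other 3 settings in which the study set morphine against saline were adolescents on water, adolescents on oral antibiotics and adults on oral antibiotics, with adolescents starting on postnatal day 25. The saline libraries carry the replicate numbers 1, 3 and 5. No label says whether each library came from a mouse of its own, so the p-values measure a spread between libraries that may be technical. That spread was estimated over all 37 libraries of the study, not over these 8 alone.

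Morphine acts mainly through the mu opioid receptor, which couples to inhibitory G proteins, lowers cyclic AMP and opens potassium channels. In the cortex the receptor is carried largely by inhibitory interneurons. Repeated doses engage several slower programmes, among them activity-dependent transcription, the stress hormone axis and the daily clock. Whole tissue mixes neurons, glia and vessels, so a marker that is lower can mean fewer cells of a type or less RNA per cell, and these cannot be told apart.

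The morphine libraries held 12206761 to 15818678 counts and the saline libraries 13490318 to 16924395. Levels are counts scaled per library (counts per 1000000, CPM) on totals scaled by the trimmed mean of M values (TMM). Slc17a7, the vesicular glutamate transporter that marks cortical excitatory neurons, was at 1552 to 1699.7 CPM. Drd2, the dopamine receptor of the indirect striatal pathway, lay at 0.957 to 1.81 CPM, and the 15 tested striatal genes summed to 435.7 to 443.9 CPM with saline and 432.2 to 467.5 CPM with morphine. Morphine replicate 5 stood apart from the other libraries. On the first principal component, which held 23.1% of the variance, it was at 44.9, and the other 7 libraries lay between -17.5 and 1.53. Its 18 myelin and mature oligodendrocyte genes summed to 3997 CPM, against 1842 to 2135 CPM in the other 4 morphine libraries and 2021 to 2930 CPM with saline. Its 12 genes of meninges and fibroblasts summed to 281 CPM, against 69.5 to 99.9 CPM and 88.4 to 103 CPM. For the myelin, meningeal and glucocorticoid lists and some genes, values are given with and without this library. Other values that lean on it, such as those of Oprd1 and Arntl, are given only with it. Outside these groups, 2 libraries of the study were nearly empty, with 25165 and 58764 counts.

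**Figure D1:**
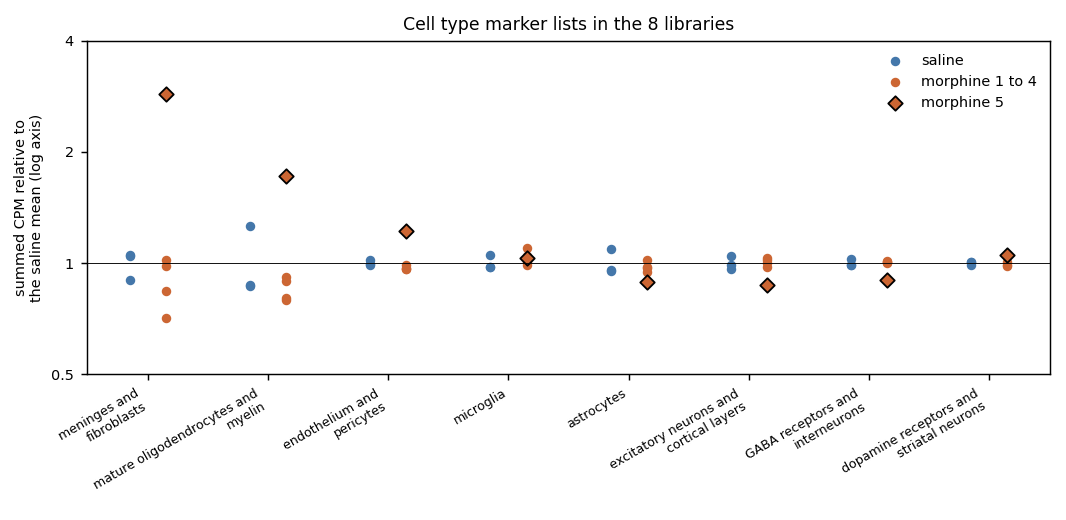
Summed CPM of marker gene lists in each of the 8 libraries, divided by the mean of the 3 saline libraries, on a log2 axis; points are libraries. Morphine replicate 5 sits far above the rest for myelin (3997 CPM) and meninges (281 CPM), and lies with the rest for microglia (514.8 CPM).

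Over the whole transcriptome no gene passed the threshold in edgeR's quasi-likelihood test. Of 19348 genes tested, 0 (0%) had an adjusted p under 0.05, and 504 (2.6%) had an unadjusted p under 0.05, 272 higher and 232 lower with morphine. DESeq2 also gave 0, with 41 genes at an unadjusted p under 0.05, and limma-voom with sample weights gave 3, with 1163. Those 3 were Mthfd1l (limma-voom adjusted p = 0.00291), Trib1 and Spry4 (both 0.0338), and over all alternatives their adjusted p ranged from these values up to 1. For 684 genes (3.54%) the saline and morphine values did not overlap, 342 (1.77%) in each direction.

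The measurement was narrow for well-expressed genes. The median standard error (SE) of a log2 fold change was 0.131, and the 95% interval lay within 2-fold in both directions for 16313 genes (84.3%) and within 1.5-fold for 13151 (68%). Of the 10601 genes that averaged 10 CPM or more in either group, the interval lay within 2-fold for 99.2% and within 1.5-fold for 97.0%. Changes beyond those sizes were therefore outside the interval for most of these genes, whose median SE was 0.085. Such intervals do not exclude smaller changes, and many changes in rare transcripts were not resolved. The log2 fold changes were spread evenly about 0, with 50.4% above it.

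**Figure D2:**
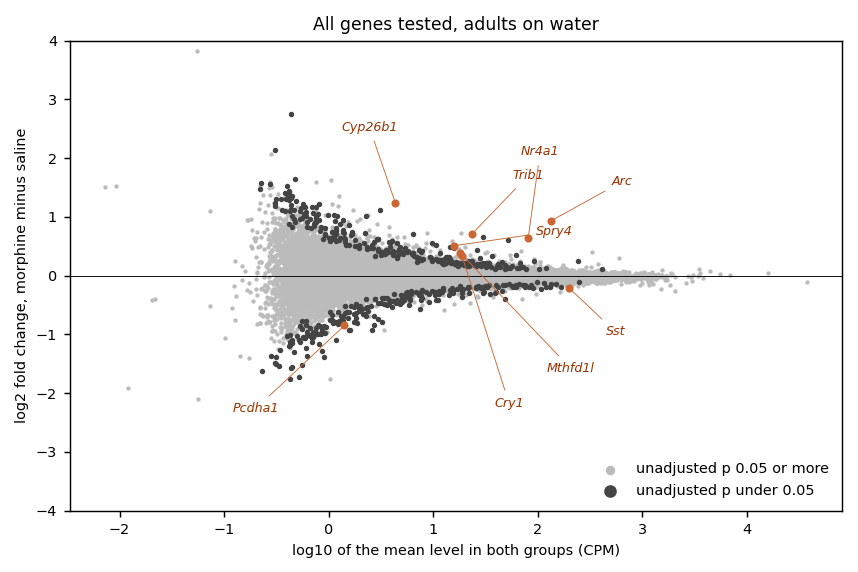
Log2 fold change, morphine minus saline, against the log10 of the mean CPM of both groups for each of the 19348 genes tested, with dark points at an unadjusted p under 0.05. Points scatter about 0 with a median SE of 0.131, and the spread widens at low levels; 0 genes passed the adjusted threshold.

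The gene with the smallest p was Mthfd1l (ENSMUSG00000040675.18), the mitochondrial enzyme that releases formate from folate for use in the cytosol. It was at 15.9, 16.5 and 14.4 CPM in saline replicates 1, 3 and 5 and at 19.6, 21.4, 20.4, 21.3 and 19.6 CPM in morphine replicates 1 to 5. All 5 morphine libraries lay above all 3 saline libraries. The means were 15.6 ± 1.08 CPM (SD, n = 3) and 20.5 ± 0.878 CPM (SD, n = 5). The log2 fold change was 0.39 (SE 0.08, 95% interval 0.23 to 0.55), with an unadjusted p = 2.29e-05 and an adjusted p = 0.444 in edgeR.

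Mthfd1l had the same direction in the other 3 settings, which share no library with this comparison. Its mean level there went from 14.5 ± 1.3 CPM (SD, n = 5) with saline to 20.4 ± 1.05 CPM (SD, n = 5) with morphine in adolescents on water. In adolescents on antibiotics it was 15.3 ± 0.654 CPM (SD, n = 3) without and 21.2 ± 1.3 CPM (SD, n = 5) with morphine, and in adults on antibiotics 18.4 ± 1.02 CPM (SD, n = 5) without and 23.1 ± 1.93 CPM (SD, n = 4) with it, leaving out the nearly empty libraries. The log2 fold changes were 0.50, 0.47 and 0.33, and the mean over the 3 settings passed in edgeR (adjusted p = 2.13e-08). The value of 0.39 in adults on water lay between those of the other settings.

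Mthfd1l belongs to a list of 20 enzymes of folate-bound carbon transfer and serine synthesis. Of these, 14 had a log2 fold change above 0 (50.4% of all genes did), with a median of 0.05 against 0.00 over all genes. Mthfd1l alone, 1 of the 20, reached an unadjusted p under 0.05, as did 2.6% of all genes. Mthfd2, a mitochondrial dehydrogenase one step earlier in the pathway, was at 4.28 to 5.27 CPM with saline and 5.30 to 5.96 CPM with morphine. Mtrr, which reactivates methionine synthase, had a log2 fold change of 0.19 and Mat2a, which makes S-adenosylmethionine, 0.11, neither with overlapping groups. Mthfd2l, a related dehydrogenase, had -0.20 and Tyms, which makes thymidylate, -0.44, both also without overlap. Without overlap were 4 of the 20 on the higher side and 2 on the lower side, against 1.77% of all genes in each direction. The log2 fold changes thus had both signs, and whether members truly differed in direction was not tested.

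**Figure D3:**
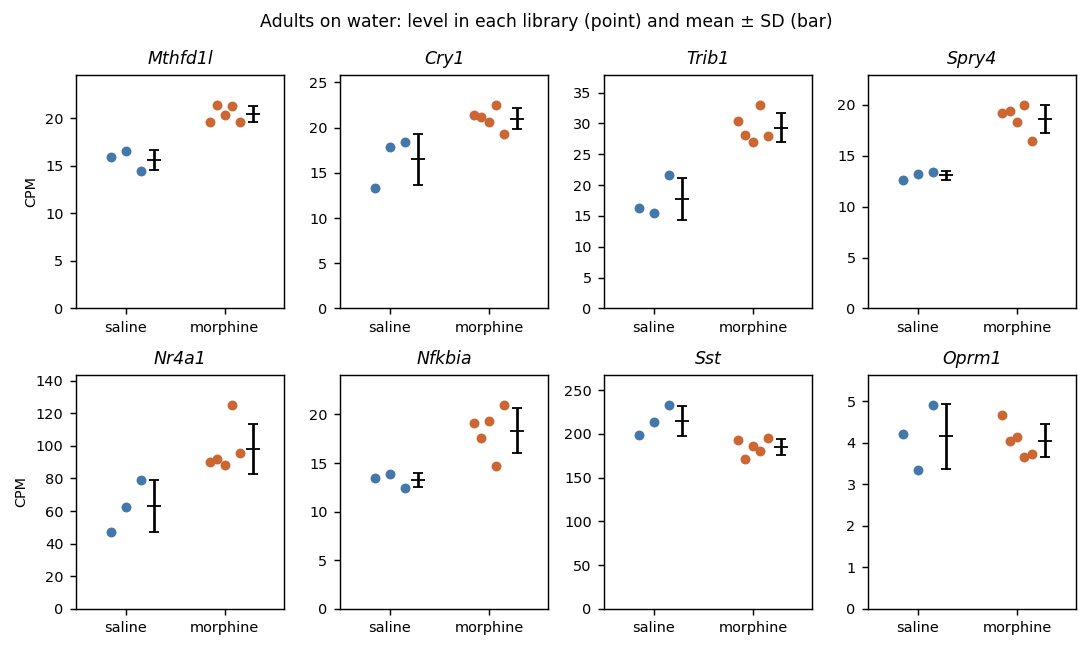
CPM of selected genes in each library of adults on water (points) with the mean and SD of each group (bars), saline on the left and morphine on the right; each vertical axis starts at 0. Mthfd1l and Spry4 show no overlap between groups, while the morphine libraries of Oprm1 lie within the range of the saline ones.

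The daily clock is a loop in which the Per and Cry proteins repress the activators that drive their own genes. Cry1 (ENSMUSG00000020038.11), a repressor of this loop, was at 13.3, 17.9 and 18.4 CPM in the saline libraries and at 21.4, 21.1, 20.6, 22.5 and 19.3 CPM in the morphine libraries. The groups did not overlap, and saline replicate 1 was the lowest. The log2 fold change was 0.34 (SE 0.11, 95% interval 0.13 to 0.56, unadjusted p = 0.00258, adjusted p = 1.00 in edgeR). In the other settings Cry1 had log2 fold changes of 0.47, 0.56 and 0.43, and their mean passed in edgeR (adjusted p = 6.96e-07).

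Per2, another repressor, was at 46.2, 57.8 and 57.3 CPM with saline and at 59.3, 64.8, 62.7, 60.6 and 59.96 CPM with morphine. Its log2 fold change was 0.19, against 0.59 in adolescents on water, where it was among the 68 genes that passed (0.351%, adjusted p = 0.000121 in edgeR). The difference between the 2 ages had an unadjusted p = 0.00268 and an adjusted p = 0.535 in edgeR. Per1 had a log2 fold change of 0.18 and Per3 of 0.00. Ciart, a further repressor, was at 11.8, 16.3 and 20.4 CPM with saline and at 19.3 to 22.2 CPM with morphine, and Tef, a clock output factor, had a log2 fold change of 0.10. Arntl, which encodes the activator BMAL1, had -0.20. Of the 10 clock repressors, 6 were above 0 with a median of 0.03, and 9, 6 and 5 were above 0 in adolescents on water, adolescents on antibiotics and adults on antibiotics, with medians of 0.38, 0.04 and 0.02. Saline replicate 1 was the lowest library for Cry1, Per1, Per2 and Ciart. Without it the log2 fold change was 0.21 for Cry1 (unadjusted p = 0.0698), 0.09 for Per2 and 0.17 for Ciart. The labels give no time of death, so treatment and time of day cannot be told apart for these genes.

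The upstream sequences of Mthfd1l, Cry1, Nr4a1 and Sst are shown because the first pair recur across the settings and the others are textbook targets of cyclic AMP signalling, which opioid receptors lower. Each is the 250 bases before the RefSeq transcript start in build GRCm38.p6, on the gene's strand, 5′ to 3′. Capitals mark TGACG, the core of the cyclic AMP response element, on either strand (CGTCA when reversed), the full element TGACGTCA, which contains that core on both strands, and the clock factors' E-box CACGTG. The windows are chr10:3972825-3973074 on the plus strand for Mthfd1l, chr10:85185055-85185304 on the minus strand for Cry1, chr15:101266596-101266845 on the plus strand for Nr4a1 and chr16:23890845-23891094 on the minus strand for Sst.
Mthfd1l: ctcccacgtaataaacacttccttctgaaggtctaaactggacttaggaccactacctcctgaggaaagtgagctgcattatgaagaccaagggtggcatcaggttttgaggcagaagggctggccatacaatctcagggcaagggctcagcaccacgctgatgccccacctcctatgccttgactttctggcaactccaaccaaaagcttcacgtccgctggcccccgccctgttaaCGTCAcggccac
Cry1: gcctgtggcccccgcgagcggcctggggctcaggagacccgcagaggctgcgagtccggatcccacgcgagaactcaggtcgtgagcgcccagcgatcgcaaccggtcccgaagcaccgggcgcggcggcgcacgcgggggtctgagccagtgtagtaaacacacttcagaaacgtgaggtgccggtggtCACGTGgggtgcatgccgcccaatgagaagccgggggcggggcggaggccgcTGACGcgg
Nr4a1: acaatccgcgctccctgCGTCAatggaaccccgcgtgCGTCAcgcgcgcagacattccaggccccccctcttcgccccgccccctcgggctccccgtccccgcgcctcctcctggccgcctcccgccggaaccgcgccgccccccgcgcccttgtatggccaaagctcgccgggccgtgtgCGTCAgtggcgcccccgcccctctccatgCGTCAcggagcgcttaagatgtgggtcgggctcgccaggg
Sst: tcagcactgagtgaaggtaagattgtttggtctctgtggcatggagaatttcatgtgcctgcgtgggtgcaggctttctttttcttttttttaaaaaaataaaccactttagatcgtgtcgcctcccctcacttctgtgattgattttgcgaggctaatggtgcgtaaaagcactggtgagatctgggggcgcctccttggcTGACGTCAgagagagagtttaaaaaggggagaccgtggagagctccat
Counting back from the start, Mthfd1l has a core at -12 to -8 and no E-box in these bases, and Cry1 has an E-box at -60 to -55 and a core at -8 to -4. Nr4a1 has 4 cores, and Sst has the full element at -48 to -41. Of 32851 promoters in the table, 17.8% hold at least 1 core, 0.137% hold 4 or more, 1.55% hold the full element and 6.02% hold the E-box. A match describes letters only and is not a measured binding site.

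Genes induced by neuronal firing and growth factor signals were mixed. Trib1 (ENSMUSG00000032501.10), a pseudokinase that directs proteins to degradation, was at 16.2, 15.5 and 21.7 CPM with saline and at 30.5, 28.2, 27.0, 33.0 and 28.05 CPM with morphine. Spry4, an inhibitor of receptor tyrosine kinase signalling, was at 12.6, 13.2 and 13.4 CPM and at 19.2, 19.4, 18.3, 19.99 and 16.5 CPM. Neither gene's groups overlapped. The log2 fold change was 0.71 for Trib1 (95% interval 0.34 to 1.09) and 0.51 for Spry4 (0.22 to 0.80), with unadjusted p = 0.000469 and 0.000884. In adolescents on antibiotics the same genes had values of the opposite sign, -0.63 and -0.73, and in adolescents on water and adults on antibiotics 0.34 and 0.26 for Trib1 and 0.47 and 0.18 for Spry4.

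Nr4a1, an orphan nuclear receptor induced within minutes of firing, was at 47.4, 62.5 and 79.3 CPM with saline and at 90.3, 91.8, 88.4, 125 and 95.4 CPM with morphine. Its log2 fold change was 0.63 (95% interval 0.20 to 1.06, unadjusted p = 0.00522). Sik1, a kinase induced by cyclic AMP, had 0.52 and Csrnp1, a nuclear factor induced by growth signals, 0.56. Zfp189, a zinc finger protein, was at 4.67 to 4.97 CPM with saline and 6.41 to 9.07 CPM with morphine, without overlap. Nfkbia, the inhibitor of NF-kappa-B, was at 12.4 to 13.8 CPM and 14.7 to 20.9 CPM, also without overlap (log2 fold change 0.47, 95% interval 0.19 to 0.76).

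The best-known members varied between libraries. Fos, the core AP-1 subunit, was at 14.6, 16.7 and 29.98 CPM with saline and at 15.8, 15.7, 17.98, 27.8 and 27.4 CPM with morphine, a log2 fold change of 0.03. Npas4, which responds to calcium entry, was at 7.54, 12.8 and 48.8 CPM with saline and at 13.2 to 40.6 CPM with morphine, also 0.03. Arc, which trims AMPA receptors from synapses, was at 42.0, 58.4 and 171 CPM with saline and at 137 to 251 CPM with morphine (log2 fold change 0.93, 95% interval -0.01 to 1.87). Saline replicate 5 was the highest saline library for Arc, Npas4, Fos, Junb and Dusp1, and with it the groups overlapped in each. For Npas4 and Fos this saline library lay above every morphine library. Without it the log2 fold change was 1.79 for Arc, 1.22 for Npas4 and 0.42 for Fos, with unadjusted p = 0.00192, 0.095 and 0.366. Nptx2, a secreted protein that gathers AMPA receptors, was lower with morphine at 39.0 to 45.98 CPM against 46.3 to 63.0 CPM (log2 fold change -0.40, unadjusted p = 0.0306).

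Over the 28 immediate early genes 17 were above 0, with a median of 0.03; 3 reached an unadjusted p under 0.05 on the higher side (1.41% of all genes) and 1 on the lower side (1.2%). Leaving out each library in turn gave 9 genes above 0 (without saline replicate 1) to 18 and medians of -0.06 to 0.11. In adolescents on water 20 of the 28 were above 0, in adolescents on antibiotics 1 and in adults on antibiotics 24. Of 14 inhibitors of growth factor signalling, the family of Spry4 and the MAP kinase phosphatases, 11 were above 0 with a median of 0.09. Dusp5 and Dusp6, phosphatases of that family, had 0.30 and 0.25.

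Among the genes lower with morphine, Pcdha1, a protocadherin of neuronal self-recognition, was at 1.58, 2.14 and 1.74 CPM with saline and at 0.666 to 1.33 CPM with morphine. Its constant exons are shared with the rest of its cluster, so the counting may have split its reads. Bcor, a corepressor, was at 38.0, 41.4 and 36.5 CPM and at 30.6, 36.7, 32.6, 29.1 and 27.6 CPM (log2 fold change -0.30, unadjusted p = 0.00163), with morphine replicate 2 just above saline replicate 5. Rai1, a chromatin regulator, was at 93.9, 102 and 95.3 CPM and at 79.8 to 85.2 CPM, without overlap. Such differences were small in size: the log2 fold change was -0.21 for Rai1 and -0.23 for Nuak1, a kinase of axon branching. Nuak1 had 0.15 in both adolescents on water and adults on antibiotics, and -0.10 in adolescents on antibiotics. The edgeR tests of the differences from the first pair gave unadjusted p = 0.000298 for age and 0.000482 for antibiotics. Neither passed after adjustment (adjusted p = 0.490 for age in edgeR). Both tests share the 8 libraries of adults on water, by whose values Nuak1 was picked, so their small p is partly set by that choice.

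Some other genes at an unadjusted p under 0.05 in edgeR were at low levels. Tpcn2, a lysosomal cation channel, was at 2.93 to 4.08 CPM with saline and 1.83 to 2.49 CPM with morphine. Creld2, a chaperone of the endoplasmic reticulum, was at 10.8 to 12.6 CPM and 8.60 to 9.80 CPM. Tgfb1, an anti-inflammatory cytokine, was at 6.33 to 6.82 CPM and 4.81 to 5.59 CPM. None of these groups overlapped. Irf9, a subunit of the interferon-activated factor, was on the other side at 5.81 to 6.52 CPM and 7.04 to 9.69 CPM (log2 fold change 0.44).

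Sst, the neuropeptide of one class of cortical interneuron, was at 198, 214 and 233 CPM with saline and at 193, 171, 186, 180 and 195 CPM with morphine. The groups did not overlap, although saline replicate 1 and morphine replicate 5 lay close together. The log2 fold change was -0.22 (SE 0.09, 95% interval -0.40 to -0.03, unadjusted p = 0.0216). The mean over the other 3 settings fell in edgeR (adjusted p = 0.048), with values of -0.16, -0.29 and -0.12. Of 28 GABA receptor and interneuron genes in adults on water, 27 had an interval within 1.5-fold and 12 were above 0.

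No opioid receptor or peptide precursor passed the threshold, and their intervals differed in width. Oprm1 (ENSMUSG00000000766.19), the mu receptor that morphine binds, was at 4.22, 3.34 and 4.91 CPM with saline and at 4.67, 4.05, 4.14, 3.67 and 3.74 CPM with morphine. The groups overlapped, and the log2 fold change was -0.04 (SE 0.18, 95% interval -0.41 to 0.33). Oprd1, the delta receptor, was at 31.97, 33.7 and 35.1 CPM and at 32.2, 29.5, 29.9, 31.1 and 26.9 CPM (log2 fold change -0.17, unadjusted p = 0.0497). Oprk1, the kappa receptor, had 0.13 with a wide interval of -0.54 to 0.81.

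The peptide precursors overlapped as well. Penk, the enkephalin precursor, was at 33.9 to 37.8 CPM with saline and 28.2 to 38.2 CPM with morphine. Its interval of -1.06 to 0.87 is wide beside these values because the fit shares 1 spread per gene with all 37 libraries. Pdyn, the dynorphin precursor, was at 17.9, 27.0 and 29.6 CPM and at 21.8 to 27.2 CPM. Of the 9 opioid receptors and peptides tested, 2 were above 0 with a median of -0.04, and 5 had an interval within 1.5-fold. Without saline replicate 5, 5 were above 0 with a median of 0.03. The log2 fold changes of this list ran from -0.26 to 0.13. With each library left out in turn, its members Pnoc and Oprl1 stayed below 0, at -0.33 to -0.19 and -0.17 to -0.05. Of 32 downstream effectors, 12 were above 0, the values ran from -0.11 to 0.10, and 29 had an interval within 1.5-fold. Arrb1, the arrestin that desensitises receptors, was at 389 to 406 CPM and 356 to 388 CPM, without overlap, a log2 fold change of -0.09.

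The glucocorticoid list holds targets of the stress hormone receptor. Of 24 members, 17 were above 0 with a median of 0.16, and 3 reached an unadjusted p under 0.05, all higher (1.41% of all genes). Without morphine replicate 5 the same list had 15 above 0, a median of 0.07 and 1 at that p. Sgk1, a kinase induced by the hormone and also expressed by oligodendrocytes, was at 42.8, 34.9 and 44.9 CPM with saline and at 62.3, 56.2, 53.4, 40.5 and 96.3 CPM with morphine. Ddit4, an inhibitor of mTOR, was at 19.5 to 23.9 CPM and 26.4 to 38.0 CPM, without overlap. Fkbp5, the receptor's own feedback chaperone, had a log2 fold change of 0.19 with overlapping groups. Without morphine replicate 5 the log2 fold change went from 0.60 to 0.38 for Sgk1, from 0.44 to 0.33 for Ddit4 and from 0.19 to 0.08 for Fkbp5. That library was the highest for Sgk1, Ddit4 and Fkbp5 and also for myelin and meningeal genes, and the part of those cells in the result was not tested.

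Microglia are the resident immune cells of the brain and the main source of its complement. Their 16 marker genes summed to 485.8 to 525.5 CPM with saline and 493.6 to 546.9 CPM with morphine, and 10 were above 0 with a median of 0.04. Leaving out each library in turn gave medians of -0.00 to 0.08. In each of the other 3 settings 0 of the 16 were above 0, with a median of -0.17, where 47%, 51.9% and 49.6% of all genes were above 0. None reached an unadjusted p under 0.05 in adults on water, and 15 had an interval within 1.5-fold.

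The difference between settings was tested for adults on water against adolescents on water and against adults on antibiotics, and both tests use the same 8 libraries. No gene passed either in edgeR: 0 of 19348 (0%) for age, with 1236 at an unadjusted p under 0.05 (6.39%), and 0 for antibiotics, with 675 (3.49%). DESeq2 gave 0 for both, with 260 and 82, and limma-voom 1 for each, Bach2 for age and Ppp1r10 for antibiotics. Of the 16 microglial genes, 6 reached an unadjusted p under 0.05 for age and 7 for antibiotics. Without morphine replicate 5 these were 3 and 6, and without the nearly empty libraries and adolescent water saline replicate 1, which stood apart in markers of striatum and myelin, 5 and 7. Markers of 1 cell type can vary together, so these genes are not independent, and the counts were not tested against chance.

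C1qb, a complement subunit, was at 30.8, 36.5 and 28.9 CPM with saline and at 33.9, 34.5, 31.2, 37.7 and 37.5 CPM with morphine. Its log2 fold change was 0.13, against -0.21, -0.21 and -0.14 in adolescents on water, adolescents on antibiotics and adults on antibiotics. Aif1, an actin-binding protein, had 0.34. Cx3cr1, the fractalkine receptor, did not follow them: it was at 46.3 to 47.4 CPM with saline and 39.2 to 45.3 CPM with morphine, without overlap, and its value of -0.11 had the sign of the other settings at -0.17, -0.23 and -0.19. Tlr4, a receptor of bacterial lipopolysaccharide, was at 1.34 to 1.496 CPM and 0.580 to 1.68 CPM.

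**Figure D4:**
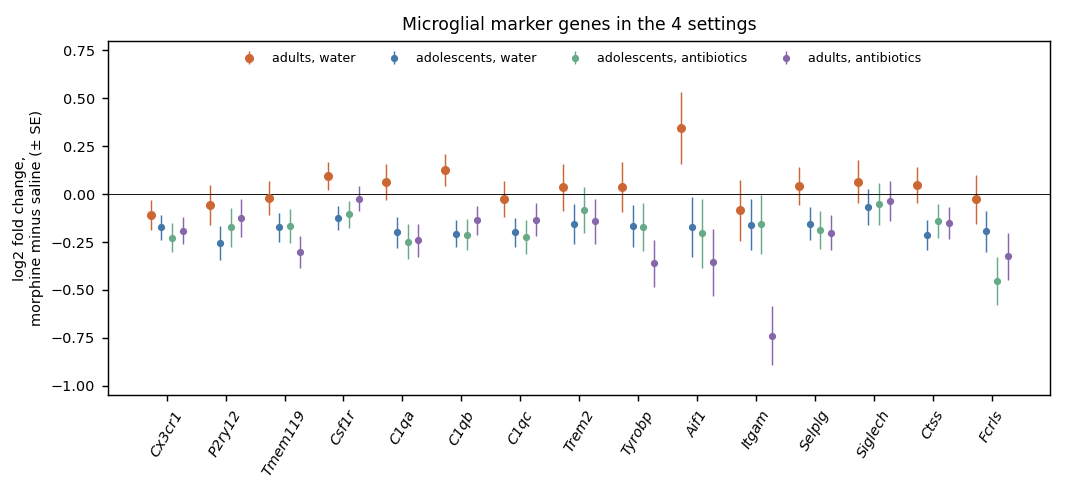
Log2 fold change, morphine minus saline (± SE), of 15 of the microglial marker genes in the 4 settings. Adults on water lie around 0 with 9 of these genes above it, and each of the other settings has all 15 below 0.

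The genes that moved with morphine elsewhere give a set chosen without these 8 libraries' values, although the fit shares its spread with them. In the mean of the other 3 settings 120 genes passed (0.62%), 46 higher (0.238%) and 74 lower (0.382%). The size of this set depended on the processing, with 15 genes in DESeq2, 21 with only the compared groups, 176 without the nearly empty libraries and 461 in limma-voom. Read in adults on water, 27 of the 46 were above 0 (58.7%, against 50.4% of all genes) with a median of 0.02 where it was 0.19 elsewhere. Of the 74, 50 were below 0 (67.6%, against 49.6%) with a median of -0.04 where it was -0.24 elsewhere. The 95% interval in adults on water took in the value from elsewhere for 20 of the 46 and 40 of the 74. The 120 genes were chosen by their values elsewhere, which tends to enlarge those values but not the ones in adults on water. How much of the gap comes from this choice was not tested. An unadjusted p under 0.05 in the same direction was reached by 5 of the 120, Mthfd1l, Cry1, Tef, Sst and Mhrt, and in the opposite direction by 2, Gm17225 and Cfap57. Over all genes 1.41% reached that p on the higher side and 1.2% on the lower side.

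Fabp7, a fatty acid carrier of radial glia and astrocytes, shows the case of a gene that moved elsewhere and was level here. It was at 11.4, 11.97 and 10.8 CPM with saline and at 10.2, 10.6, 11.8, 13.3 and 11.6 CPM with morphine. The log2 fold change was 0.01 (95% interval -0.33 to 0.36), against -0.62, -0.92 and -0.53 in adolescents on water, adolescents on antibiotics and adults on antibiotics. The edgeR tests of the difference gave unadjusted p = 0.00696 for age and 0.0312 for antibiotics. Neither passed after adjustment (adjusted p = 0.612 for age in edgeR). Fabp7 was picked as changed elsewhere and level here, from values that both tests use. Their small p is therefore partly set by that choice, and they cannot decide whether the settings differ for this gene. Lpl, which frees fatty acids from lipoproteins, had -0.05 against -0.61, -0.41 and -0.31. Rbm3, a cold-induced RNA-binding protein that overlaps an antisense gene, had 0.04 against 0.31, 0.32 and 0.15.

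**Figure D5:**
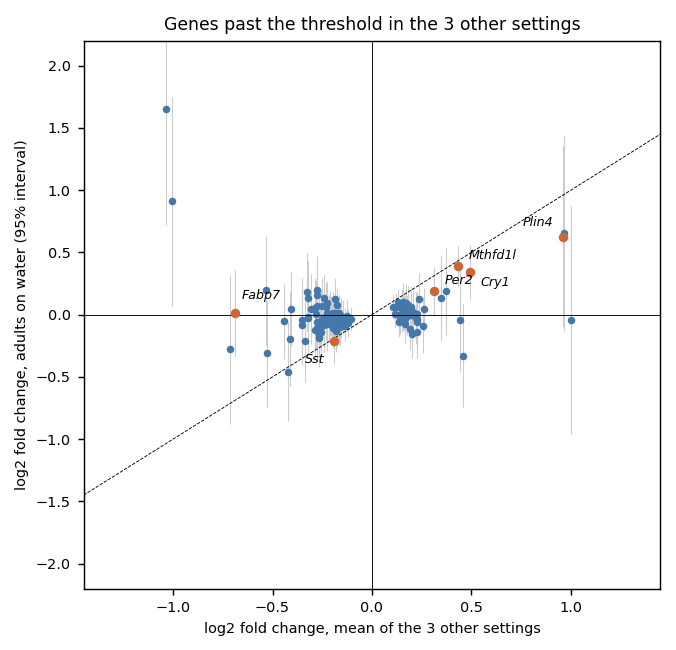
For the 120 genes past the threshold in the mean of the other 3 settings, the log2 fold change there (horizontal) and in adults on water with its 95% interval (vertical). Mthfd1l and Cry1 lie above 0 on both axes, and most other genes lie near 0 on the vertical axis, with medians of 0.02 and -0.04.

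Read the other way, the 504 genes at an unadjusted p under 0.05 in adults on water had the same direction in adolescents on water for 49.2% (48.03% of all genes did), in adolescents on antibiotics for 53.0% (53.0%) and in adults on antibiotics for 58.7% (54.9%).

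Long nuclear RNAs, noncoding transcripts that stay largely in the nucleus, had 4 of 10 above 0 with a median of -0.02, against 10, 10 and 8 of 10 in the other settings with medians of 0.21, 0.17 and 0.14. Morphine replicate 1 was the lowest library: Malat1, the most familiar of them, was at 1146, 1337 and 1069 CPM with saline, at 733 CPM in that library and at 1132 to 1274 CPM in the other morphine libraries. Without that library 8 of 10 were above 0 with a median of 0.06. Without saline replicate 3 the count was 7, and without saline replicate 5 it was 2. Kcnq1ot1, an imprinted antisense RNA, was at 27.2 to 32.2 CPM with saline and 16.4 to 26.3 CPM with morphine, without overlap.

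Myelin and meningeal genes followed morphine replicate 5. Of 18 myelin genes 12 were above 0 with a median of 0.06, and without that library 0 were above 0 with a median of -0.21. All 12 meningeal genes were above 0 with a median of 0.36, and without it 1 was, with a median of -0.37. Mbp, the main myelin protein, was at 1265, 841 and 866 CPM with saline and at 749 to 1670 CPM with morphine. Cyp26b1, which breaks down retinoic acid, was at 2.49 to 2.81 CPM with saline and at 17.6 CPM in morphine replicate 5, against 1.67 to 4.47 CPM in the other morphine libraries. Its log2 fold change was 1.23 with that library and 0.27 without it.

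How closely the remaining lists were measured differed between them. All 20 chaperones of the endoplasmic reticulum had an interval within 1.5-fold, with a median of -0.02, as did 28 of 30 glutamate receptor genes, 21 of 24 cytosolic heat shock genes and 20 of 21 cholesterol genes. Fewer did among interferon-stimulated and MHC class I genes (8 of 21), neuropeptides (9 of 17), striatal genes (2 of 15) and blood cell genes (0 of 6). These widths draw on the spread of all 37 libraries. The striatal sum was 432.2 to 467.5 CPM in the 8 libraries here and reached 2409 CPM in adolescents on water with saline. Of 15 astrocyte markers 14 had such an interval and 1 was above 0, with a median of -0.04. The astrocyte sum was 6271, 7118 and 6237 CPM in saline replicates 1, 3 and 5, and 5802 to 6659 CPM with morphine. Of 13 mitochondrially encoded genes 11 were above 0 with a median of 0.03. All 6 tested blood cell genes were above 0 with a median of 0.28, and their sum was 63.3 to 88.9 CPM with saline and 69.3 to 119.7 CPM with morphine. Bdnf, the neurotrophin of activity-dependent plasticity, had a log2 fold change of 0.02.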

How the data were processed

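Polyadenylated RNA was extracted with an RNeasy kit and made into libraries with the ABclonal Fast RNA-seq kit, per the labels' protocols. The authors deposited raw read counts per gene for 37 libraries, and STAR 2.7.10a, DESeq2 and build mm10 are named in the submitters' processing notes. The use made of DESeq2, the annotation and the strand setting were not given in the sources used here. A gene and its antisense neighbour may therefore share reads. Of 56980 identifiers, 52073 matched a symbol in GENCODE M21, and the rest held 4.20% of the counts of the 8 libraries.

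Counts were fitted in R 4.3.3 with edgeR 4.0.16: TMM scaling, a filterByExpr filter by group that kept 19348 genes, and a robust quasi-likelihood fit to the 37 libraries, estimating 1 mean for each of 8 groups. P-values were adjusted by Benjamini-Hochberg over all genes, with a threshold of 0.05. CPM of single libraries uses the scaled totals, and means of other settings leave out libraries under 1000000 counts. Morphine was contrasted with saline in adults on water, in each other setting and in the mean of the other 3. Interactions tested the difference from adolescents on water and from adults on antibiotics. The procedure was tested on simulated data.

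Alternatives were DESeq2 1.42.0, limma-voom (limma 3.58.1), DESeq2-style size factors, no filter, fewer groups in the fit, a replicate block and leaving out each library. The fit without adolescent water saline replicate 1 and the lists without morphine replicate 5 were chosen after seeing the data. Named genes follow a rule: per direction the 12 with the smallest p and the 4 with the largest change at an unadjusted p under 0.05, up to 3 such members of each of 37 gene lists, 10 per direction from the other settings, those past the threshold in an alternative and a fixed set. Predicted or clone-like names were left out and not all of these genes are named, and a few are not reported here. A further 33 genes were chosen after their values were seen, as were Bach2, Mhrt, Gm17225 and Cfap57. The comparison and lists were chosen with earlier results of these data known. Promoter sequences came from RefSeq, where 7 of 10 genes looked up matched.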

Additional observations from a re-analysis of the deposited data

Results flagged for a closer look

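Among the 5 morphine libraries, 1 library lay apart from the other 4 (a gap of more than 0.71 of the group's range) for 18 of 112 named genes and 9 of 37 gene lists. The cut-off is set for about 1 in 20 among independent, normally distributed values. These genes and lists partly overlap and vary together, and some genes were chosen after their values were seen. That rate therefore does not apply to these counts, which were not tested against chance. Replicate 5 was the library apart for 7 of the genes and 7 of the lists.

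Replicate 5 had the highest sums for myelin (3997 CPM, next 2135), meninges and fibroblasts (281 CPM, next 99.9), endothelium and pericytes (795 CPM, next 643), choroid plexus and ependyma (13.8 CPM, next 5.10) and interferon-stimulated and MHC class I genes (265 CPM, next 197). It had the lowest sums for clock activators and output genes (1012 CPM, next 1138) and for GABA receptors and interneurons (4399 CPM, next 4866), and its first principal component score was 44.9, next -3.48. By gene it was the highest for Cyp26b1 (17.6 CPM), Ddit4 (38.0 CPM), Fibin (11.0 CPM), Usp18 (1.62 CPM), Mbp (1670.2 CPM) and Ogn (34.03 CPM), and the lowest for P2ry12 (29.7 CPM).

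Replicate 1 was the lowest for Rai1 (79.8 CPM), Lrp4 (38.1 CPM), Malat1 (733 CPM), Kcnq1ot1 (16.4 CPM), Per3 (52.2 CPM) and Mat2a (137 CPM), and the highest for the sum of hypoxia-inducible genes (1375 CPM, next 1286). Replicate 4 was the highest for the sum of immediate early genes (2132 CPM, next 1769), for Nr4a1 (125 CPM), Arc (251 CPM), Pex6 (51.7 CPM) and Csf1r (105 CPM), and the lowest for Gse1 (51.2 CPM).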

How the results depend on the processing

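Counts past the threshold in adults on water stayed at 0 under every alternative run except limma-voom, which gave 3, and at 0 with each of the 8 libraries left out (436 to 574 genes at an unadjusted p under 0.05). Counting genes without overlap in place of a model gave 684. The age difference had 1 gene in limma-voom, Bach2 (log2 0.80, adjusted p = 0.00135, 0.00135 to 1 over alternatives), and the antibiotic difference had 1, Ppp1r10, in limma-voom (adjusted p = 0.0242), without the nearly empty libraries (1 gene, 0.0318) and also without adolescent water saline replicate 1 (1 gene, 0.0274; 0.0242 to 1 over alternatives). The mean of the other 3 settings had 120 genes, and 15 in DESeq2, 461 in limma-voom, 79 with no filter, 21 with only the compared groups, 176 without the nearly empty libraries and 477 without these and adolescent water saline replicate 1. Same-numbered libraries had correlations of 0.039, 0.029 and 0.054 and share only a number. A replicate block gave 0 genes (524 at an unadjusted p under 0.05) and 130 for the other 3 settings. Of 1904 values of 112 named genes under alternatives, 1823 kept their direction and 81 did not.

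Apart from leaving out libraries, 8 genes changed sign, all near 0 but Ogn (0.73 with the settings used). With the block these were Oprm1 (0.038), Bdnf (-0.021), Tnik (-0.0024), Pdyn (0.0035), Mbp (0.13), Per3 (-0.015), and in limma-voom Fos (-0.021), Pdyn (0.025), Ogn (-0.022). In DESeq2 they were Pdyn (0.0022), Mbp (0.0053) and with no filter Pdyn (0.00089), Mbp (0.0010). Mbp also did so with other size factors (0.0059), only the compared groups (0.0014), only adults (0.0014) and without the nearly empty libraries (0.0025). The cause was not tested.

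Leaving out a library in turn changed the sign of 26 genes, given as lowest and highest log2 fold change: Acap3 -0.043 and 0.0016, Bdnf -0.044 and 0.12, Cpeb1 -0.0042 and 0.047, Drd1 -0.031 and 0.33, Fabp7 -0.043 and 0.056, Fcrls -0.090 and 0.076, Fos -0.16 and 0.42, Gfap -0.27 and 0.086, Itgam -0.16 and 0.0036, Lrp4 -0.15 and 0.023, Lyst -0.13 and 0.022, Malat1 -0.15 and 0.033, Mbp -0.27 and 0.21, Meg3 -0.091 and 0.072, Npas4 -0.37 and 1.22, Ogfr -0.0043 and 0.054, Ogn -0.40 and 0.94, Oprk1 -0.13 and 0.30, Oprm1 -0.17 and 0.11, P2ry12 -0.12 and 0.033, Pdyn -0.19 and 0.14, Per3 -0.016 and 0.039, Pomc -0.38 and 0.16, Rbm3 -0.016 and 0.084, Tmem119 -0.051 and 0.0065, Tnik -0.034 and 0.052. The cause was not tested. With 3 saline libraries, no gene passed the adjusted threshold in edgeR. An interval within 1.5-fold does not exclude smaller changes, and many changes in rare transcripts were not resolved.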
